A study of Mus musculus with 17 samples.

Results

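Cwc22, Il1f9, 4930562C15Rik and A430107O13Rik are 4 of the 23284 genes counted in mouse tumours with and without engineered Crebbp alleles. They were chosen by their counts, as genes that differed strongly and in the same direction between the genotypes in both kinds of tumour found in the series: Cwc22, Il1f9 and 4930562C15Rik were higher, and A430107O13Rik was lower, in the tumours with the Crebbp alleles. All 4 passed the filter on low counts in every fit. Because that difference chose them, it is described below without a test, and tests are kept for what the choice did not use directly.

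RNA was sequenced from 17 tumours labelled as neuroendocrine tumours of the pituitary. The 8 Rb1/Trp53/Crebbp tumours carried engineered alleles of the tumour suppressors Rb1 and Trp53 and of Crebbp, which encodes the histone acetyltransferase and coactivator CBP; the 9 Rb1/Trp53 tumours carried the first pair of alterations alone, so that both genotypes share them. The labels give no strain, sex, age, Cre driver or litter, and do not say that each tumour came from its own mouse, so that the spread between libraries may be partly technical. The libraries fall into a Pomc-high set, with more reads of the pituitary hormone precursor Pomc than of the calcitonin gene Calca (4 Rb1/Trp53/Crebbp tumours, T5 to T8, and 6 Rb1/Trp53 tumours, T2 and T5 to T9), and a Calca-high set with the reverse (4 Rb1/Trp53/Crebbp tumours, T1 to T4, and 3 Rb1/Trp53 tumours, T1, T3 and T4). Pomc stood at 106000 to 278100 CPM (a gene's count scaled by the library's total count on genes) in the Pomc-high libraries and at 4.19 to 73.1 CPM in the Calca-high ones, so that the marker of the labelled tissue was nearly missing from the Calca-high set. Each library held 8328297 to 28140755 reads on genes (median 13456360). In the Calca-high set the Rb1/Trp53 libraries held 20361712 to 28140755 and the Rb1/Trp53/Crebbp libraries 8328297 to 15490074. Reads that fell on no gene made up 15.9% to 16.5% of the former and 18.5% to 21.7% of the latter. The part of these library differences in the genotype differences of that set was not tested.

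Cwc22 is a spliceosome factor that, in human cells, brings the helicase EIF4A3 to pre-mRNA and so allows the exon junction complex, which marks spliced mRNA for export and quality control, to be laid down. In the mouse the gene is also known from a segment that differs in copy number among laboratory and wild-derived stocks. Il1f9 encodes interleukin 36 gamma, a cytokine of the interleukin 1 family that epithelial cells release and that signals through the receptor chains Il1rl2 and Il1rap. A430107O13Rik is the older name of Cped1, which encodes a protein with a cadherin-like and a PC-esterase domain. For 4930562C15Rik no role is given here. CBP is best known as a partner of CREB, which binds the cAMP response element (CRE) in promoters, so the promoter sequences of the 4 genes are shown next, as RefSeq gives them for GRCm38.p6.

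The 250 bases before each annotated start follow, 5′ to 3′ on the strand of the gene; capitals mark the letters TGACG of the CRE core or TATAA of the TATA box, or their reverse complements CGTCA and TTATA. The stretches are chr2:77946357-77946606 on the minus strand for Cwc22, chr2:24186226-24186475 on the plus strand for Il1f9, chr16:4835166-4835415 on the plus strand for 4930562C15Rik and chr6:21985660-21985909 on the plus strand for A430107O13Rik.
Cwc22: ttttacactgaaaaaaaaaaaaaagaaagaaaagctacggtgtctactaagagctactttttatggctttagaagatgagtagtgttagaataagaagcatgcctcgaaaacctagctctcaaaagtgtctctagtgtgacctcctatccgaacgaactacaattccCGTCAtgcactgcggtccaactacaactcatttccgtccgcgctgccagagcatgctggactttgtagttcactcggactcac
Il1f9: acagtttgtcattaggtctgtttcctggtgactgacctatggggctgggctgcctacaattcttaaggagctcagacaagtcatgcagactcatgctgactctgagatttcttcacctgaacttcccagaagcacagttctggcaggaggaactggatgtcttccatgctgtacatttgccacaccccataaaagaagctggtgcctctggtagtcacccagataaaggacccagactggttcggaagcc
4930562C15Rik: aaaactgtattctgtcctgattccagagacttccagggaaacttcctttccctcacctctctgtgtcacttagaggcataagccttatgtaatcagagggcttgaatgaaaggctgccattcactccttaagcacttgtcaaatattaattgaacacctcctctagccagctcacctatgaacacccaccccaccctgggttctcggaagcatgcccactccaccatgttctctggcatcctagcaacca
A430107O13Rik: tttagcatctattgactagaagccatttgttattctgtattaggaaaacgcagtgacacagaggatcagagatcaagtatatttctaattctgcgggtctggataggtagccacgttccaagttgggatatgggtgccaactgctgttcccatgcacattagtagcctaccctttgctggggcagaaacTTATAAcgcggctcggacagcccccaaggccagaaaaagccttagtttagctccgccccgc

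The Cwc22 stretch held 1 CRE core, 83 bases before the start. It lies on the strand opposite to the gene and so reads CGTCA as printed. None stood in the other stretches. Of 32851 RefSeq mouse promoters of the same length, 17.8% hold the core on either strand. The TATAA letters stood only in the A430107O13Rik stretch, where TTATA and TATAA overlap 61 and 60 bases before the start, against 22.8% of all promoters. The Cwc22 stretch had 10 CpG dinucleotides and 42.8% G or C, and the A430107O13Rik stretch 8 CpG and 48%. Il1f9 (50% G or C) and 4930562C15Rik (48%) had 1 CpG each, where the median over all promoters was 6 CpG and 52.4%. The 4 stretches thus shared neither motif, and the matches describe letters in these windows only.

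Cwc22 was the gene with the widest separation over the 17 libraries and in the Pomc-high set, and came 5th of 14195 genes in the Calca-high set. In the Pomc-high set it stood at 644, 775, 624 and 714 CPM in Rb1/Trp53/Crebbp tumours T5 to T8, against a lowest value of 26.4, a median of 29.2 and a highest of 34.5 CPM in the 6 Rb1/Trp53 tumours. Calca-high tumours had 481, 634, 709 and 702 CPM in Rb1/Trp53/Crebbp tumours T1 to T4, against 30.4, 32.3 and 32.9 CPM in Rb1/Trp53 tumours T1, T3 and T4. The genotypes did not overlap in either set: the lowest Rb1/Trp53/Crebbp library, T1, was still 13.9 times the highest Rb1/Trp53 library, T2. These values rest on 4002 to 10868 reads per Rb1/Trp53/Crebbp library and 247 to 908 per Rb1/Trp53 library.

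Cwc22 averaged 660 ± 88.5 CPM in the Rb1/Trp53/Crebbp tumours (SD, n = 8) and 30.8 ± 2.79 CPM in the Rb1/Trp53 tumours (SD, n = 9). On the log2 CPM scale, its SD among Pomc-high tumours was 0.13 in Rb1/Trp53/Crebbp and 0.11 in Rb1/Trp53 tumours, where the median SD over 14338 genes was 0.22 and 0.21. Among Calca-high tumours its SD was 0.27 in Rb1/Trp53/Crebbp, above the median gene's 0.18, and 0.10 in Rb1/Trp53 tumours, below the median gene's 0.19. Rb1/Trp53/Crebbp T1, at 481 CPM, was the low library of its group. The ratio of mean CPM was 22.7 in the Pomc-high set and 19.8 in the Calca-high set. The log2 fold change, scaled between libraries by the trimmed mean of M-values (TMM), was 4.40 ± 0.09 (SE) in the Pomc-high set and 4.10 ± 0.17 in the Calca-high set. RefSeq shows no gene overlapping Cwc22. Whether the genome of these mice holds further copies of Cwc22 cannot be read from counts of unique reads, and its level is uncertain to that extent.

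Il1f9 was higher in every Rb1/Trp53/Crebbp tumour than in any Rb1/Trp53 tumour. Pomc-high tumours had 14.5, 21.9, 17.2 and 17.9 CPM in Rb1/Trp53/Crebbp tumours T5 to T8, against 1.58, 1.89 and 3.70 CPM (lowest, median and highest) in the 6 Rb1/Trp53 tumours. Among Calca-high tumours the values were 10.3, 12.6, 13.7 and 12.01 CPM in Rb1/Trp53/Crebbp tumours T1 to T4, against 2.38, 2.95 and 2.01 CPM in Rb1/Trp53 tumours T1, T3 and T4. The nearest libraries of the genotypes, Rb1/Trp53/Crebbp T1 and Rb1/Trp53 T5, were 2.79-fold apart. The ratio of mean CPM was 7.73 in the Pomc-high set and 4.96 in the Calca-high set, and the log2 fold change was 2.82 ± 0.22 and 2.10 ± 0.22 (SE). The Rb1/Trp53 values rest on only 16 to 83 reads per library and the Rb1/Trp53/Crebbp values on 86 to 295.

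4930562C15Rik gave the same order of genotypes. The Pomc-high values were 30.1, 64.2, 37.3 and 44.1 CPM in Rb1/Trp53/Crebbp tumours T5 to T8, against 4.22, 8.92 and 10.3 CPM (lowest, median and highest) in the 6 Rb1/Trp53 tumours. For Calca-high tumours the values were 50.7, 54.7, 71.8 and 73.3 CPM in Rb1/Trp53/Crebbp tumours T1 to T4, against 7.57, 7.57 and 9.77 CPM in Rb1/Trp53 tumours T1, T3 and T4. The lowest Rb1/Trp53/Crebbp library, T5, was 2.91 times the highest Rb1/Trp53 library, T6, and the Rb1/Trp53/Crebbp libraries of the Pomc-high set were the more uneven, with T6 well above T5. The log2 fold change was 2.35 ± 0.23 (SE) in the Pomc-high set and 2.72 ± 0.18 in the Calca-high set. In RefSeq the gene overlaps the non-coding gene Gm36513, and no source used here states that reads were counted by strand, so reads of the pair may not be separable.

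A430107O13Rik went the other way and was the least separated. Among Pomc-high tumours the values were 1.92, 1.93, 1.50 and 3.57 CPM in Rb1/Trp53/Crebbp tumours T5 to T8, against 4.70, 8.52 and 10.8 CPM (lowest, median and highest) in the 6 Rb1/Trp53 tumours. The Calca-high values were 2.40, 2.62, 1.65 and 5.10 CPM in Rb1/Trp53/Crebbp tumours T1 to T4, against 10.9, 8.07 and 9.09 CPM in Rb1/Trp53 tumours T1, T3 and T4. The genotypes did not overlap within either set. Across sets, Rb1/Trp53/Crebbp T4 at 5.10 CPM lay above Rb1/Trp53 T5 at 4.70 CPM. With TMM scaling those libraries changed places and left a gap of 0.063 on the log2 CPM scale, which is far below the spread within either genotype (SD 0.53 in Rb1/Trp53/Crebbp and 0.42 in Rb1/Trp53 tumours).

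The log2 fold change of A430107O13Rik was -1.98 ± 0.30 (SE) in the Pomc-high set and -1.84 ± 0.37 in the Calca-high set, from 14 to 79 reads per Rb1/Trp53/Crebbp library and 47 to 237 per Rb1/Trp53 library. In Rb1/Trp53/Crebbp tumours its level averaged 2.59 ± 1.21 CPM (SD, n = 8), and in Rb1/Trp53 tumours 8.49 ± 2.33 CPM (SD, n = 9). T8 and T4 were the highest Rb1/Trp53/Crebbp libraries of their sets. Without Rb1/Trp53/Crebbp T8 the log2 fold change in the Pomc-high set was -2.21. The overlapping RefSeq entries Gm8564 and Gm42573 are pseudogenes. In these bulk samples, fewer cells that express a gene and less of its RNA per cell cannot be told apart.

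**Figure D1:**
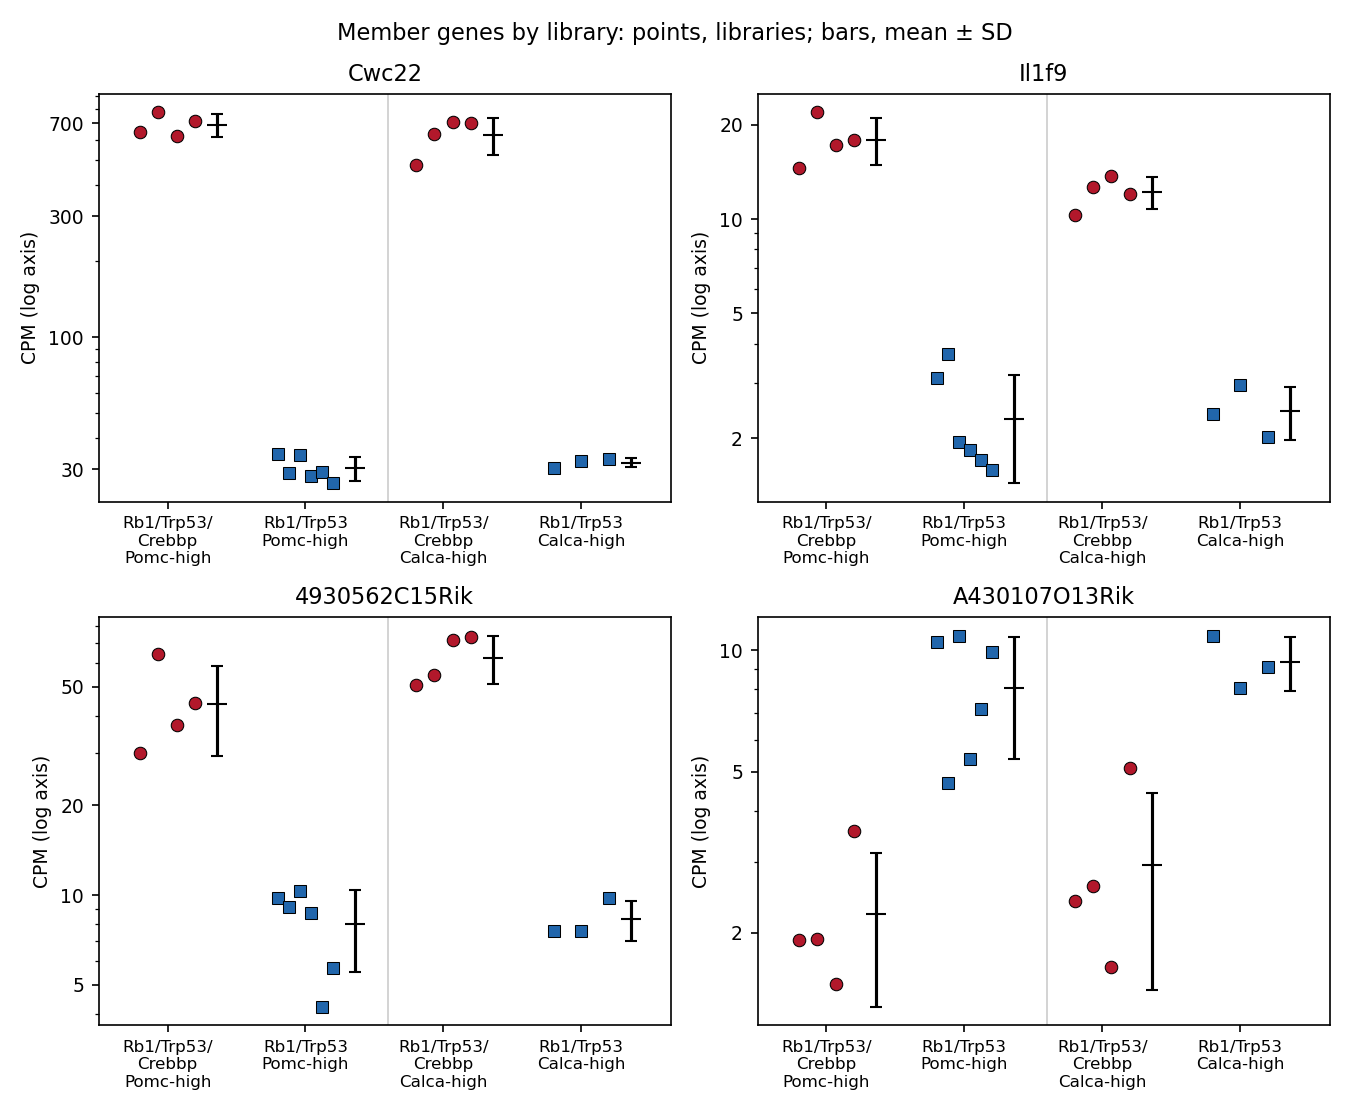
CPM of the 4 genes in each of the 17 libraries, on a log axis; red circles are Rb1/Trp53/Crebbp tumours, blue squares Rb1/Trp53 tumours, and the black bars give mean ± SD of each group. Red and blue points do not overlap within either set for any of the 4 genes; for A430107O13Rik the highest Rb1/Trp53/Crebbp library (5.10 CPM, Calca-high) lies above the lowest Rb1/Trp53 library (4.70 CPM, Pomc-high).

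The share of all genes that passed the same test gives the scale for these differences. With edgeR's quasi-likelihood test at an adjusted p under 0.05, 3.86% of 14338 tested genes passed over all 17 libraries, 8.42% of 14010 in the Pomc-high and 36.2% of 14797 in the Calca-high set; nothing is read from the members' own calls, since the choice used these contrasts. Of 13632 genes tested in both sets, 321 (2.35%) passed in both in the same direction, 141 of them higher with the Crebbp alleles and 180 lower. Ordered by the smaller of the absolute log2 fold changes in the sets, Cwc22 came 1st, 4930562C15Rik 3rd, Il1f9 7th and A430107O13Rik 10th among the 321. In the plot of both fold changes Cwc22 lies apart from the other called genes, while the other three have called genes close by.

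**Figure D2:**
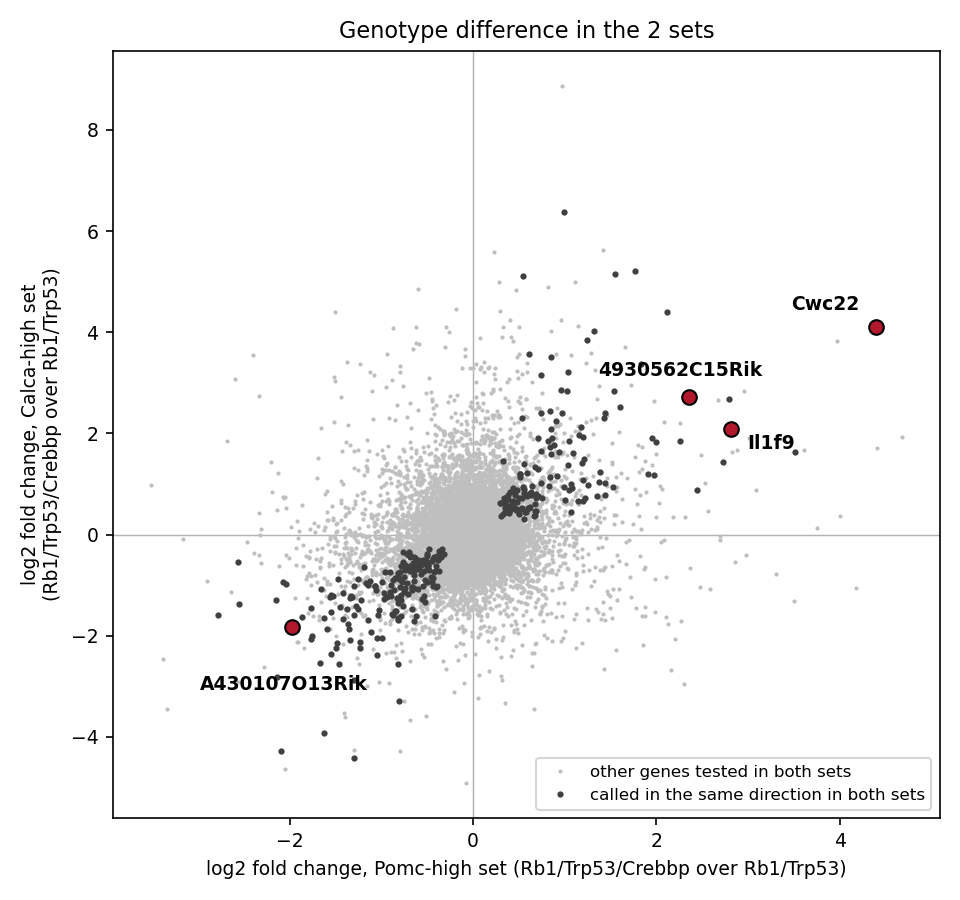
Log2 fold change of Rb1/Trp53/Crebbp over Rb1/Trp53 tumours in the Pomc-high set (x axis) against the Calca-high set (y axis) for 13632 genes; dark points are the 321 genes that passed in the same direction in both sets, red points the 4 members. Cwc22 sits alone at 4.40 and 4.10, while Il1f9, 4930562C15Rik and A430107O13Rik have dark neighbours.

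The gap between the genotypes is a description that needs no test, here the lowest log2 CPM of the higher genotype minus the highest of the lower genotype. It rests on the values that chose the members, so their high places follow in part from the choice. Of 14087 genes that averaged 1 CPM or more, 103 (0.731%) had no overlap over the 17 libraries, 38 of them (0.27%) higher with the Crebbp alleles and 65 (0.461%) lower. Cwc22 had a gap of 3.57, 4930562C15Rik of 1.53 and Il1f9 of 1.21. These were the widest of all over the 17 libraries, and no other gene reached a gap of 1 there (3 of 14087 genes, 0.0213%). A430107O13Rik came 67th. Within the sets alone, no overlap was common, at 9.83% of genes in the Pomc-high set and 45.2% in the Calca-high set. By gap, 4930562C15Rik came 6th and Il1f9 3rd of 13836 genes in the Pomc-high set, but 62nd and 167th of 14195 in the Calca-high set.

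The next genes by gap were on other chromosomes for the most part. Lgals12, which encodes the lectin galectin 12, was at 3.24 to 6.52 CPM in the Rb1/Trp53/Crebbp tumours and 9.55 to 14.0 CPM in the Rb1/Trp53 tumours, a gap of 0.78. Slc35c1, the Golgi GDP-fucose transporter gene, followed at 27.5 to 42.0 CPM in Rb1/Trp53/Crebbp against 51.6 to 62.8 CPM in Rb1/Trp53 tumours, a gap of 0.66. The other 8 had gaps of 0.42 to 0.62. Among them Nlgn1, a synaptic adhesion gene, Cntn1, a neuronal adhesion gene, and Map6d1 were higher, and Slc16a8, Nccrp1, Ifi27l2a, Pkib and Gpr56 were lower in the Rb1/Trp53/Crebbp tumours.

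**Figure D3:**
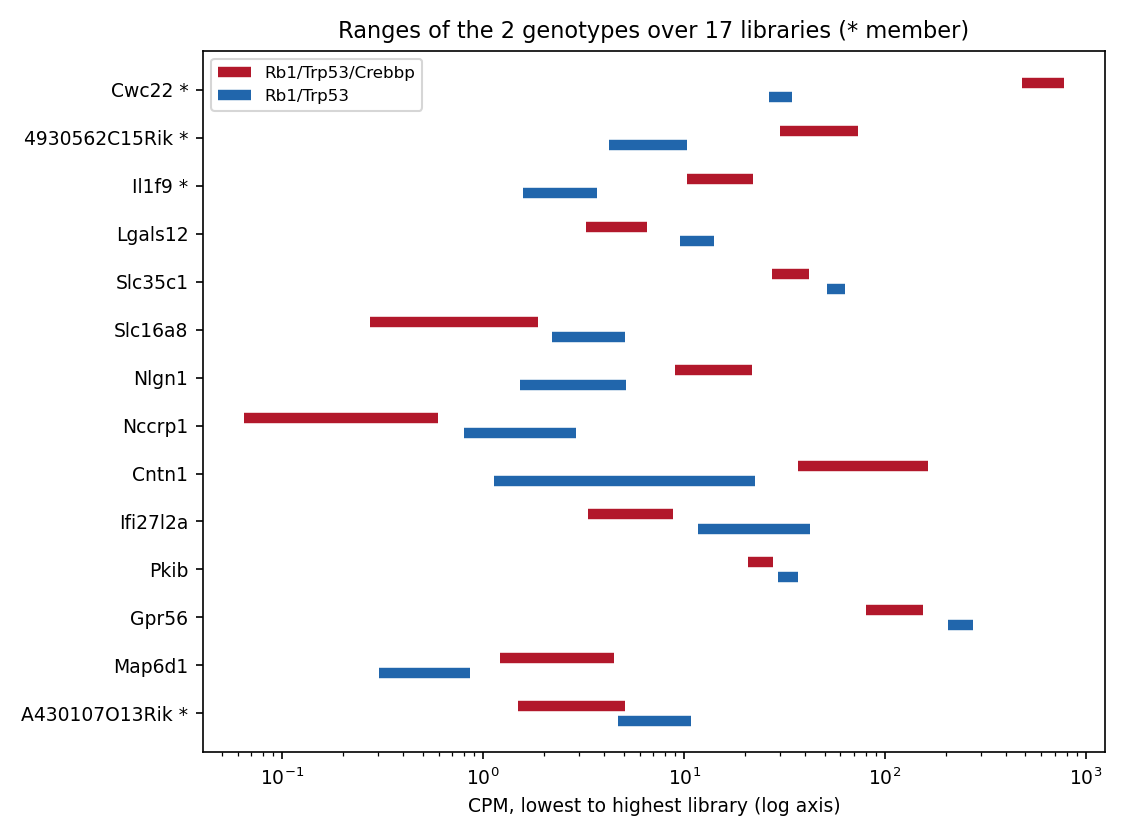
Lowest to highest CPM over the libraries of each genotype (red, 8 Rb1/Trp53/Crebbp; blue, 9 Rb1/Trp53; log axis) for the 4 members, marked with an asterisk, and the 10 other genes with the widest gap. Cwc22, 4930562C15Rik and Il1f9 have gaps above 1 on the log2 scale, and A430107O13Rik, at the bottom, has overlapping bars.

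The genes most like each member were found from the root mean square difference of log2 CPM, centred on each gene's mean, over the 17 libraries and 14087 genes. Il1f9 and 4930562C15Rik were each other's nearest gene, at 0.49, where the distance of Il1f9 from a flat profile was 1.27 and that of 4930562C15Rik 1.30. After each other, Il1f9 was nearest to Map6d1 (0.63) and Nlgn1 (0.68), and 4930562C15Rik to Scn9a (0.61), a sodium channel gene, and 6430704M03Rik (0.61). For Cwc22 the nearest were 4930562C15Rik (0.94), Il1f9 (0.94) and Scn9a (1.27), against 2.11 from a flat profile, so that no gene matched the size of its difference. For A430107O13Rik they were Lgals12 (0.47), AI506816 (0.58) and Tead2 (0.58), a transcription factor gene of the Hippo pathway, against 1.05 from a flat profile. These distances are a description over libraries that share genotype and set.

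The choice of members did not use the difference between the sets within a genotype directly, so this was tested with edgeR's quasi-likelihood test in a fit of 4 groups. The choice did bear on how far that difference can vary between the genotypes. These tests are therefore not fully independent of it. Among Rb1/Trp53/Crebbp tumours, Il1f9 was higher in the Pomc-high set, at 17.9 ± 3.06 CPM in the Pomc-high and 12.2 ± 1.41 CPM in the Calca-high tumours (SD, n = 4 each; log2 difference 0.71 ± 0.22 SE, adjusted p = 0.0125). It kept its call without any single library (adjusted p from 0.00518 to 0.0493). Cwc22 averaged 689 ± 69.3 CPM in the Pomc-high and 631 ± 106 CPM in the Calca-high Rb1/Trp53/Crebbp tumours (0.28 ± 0.11, adjusted p = 0.047). That call did not hold without Rb1/Trp53 T3, T4, T5, T7, T8 or T9, or without Rb1/Trp53/Crebbp T1, T5, T6 or T7 (adjusted p from 0.052 to 0.144). Of 15432 genes, 53.7% passed this contrast, so that a call in it is common.

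4930562C15Rik did not pass between the sets of Rb1/Trp53/Crebbp tumours, at 43.9 ± 14.7 CPM in the Pomc-high and 62.6 ± 11.6 CPM in the Calca-high tumours (-0.36 ± 0.23, adjusted p = 0.195). Without Rb1/Trp53/Crebbp T6, the highest of the Pomc-high libraries for this gene, the difference was -0.61 (adjusted p = 0.0251). A430107O13Rik did not pass either (-0.29 ± 0.36, adjusted p = 0.523). Among Rb1/Trp53 tumours none of the 4 passed, while 55.7% of all genes did, which is given as a description. Their log2 differences, Pomc-high over Calca-high, were -0.005 ± 0.12 for Cwc22, -0.006 ± 0.24 for Il1f9, 0.008 ± 0.24 for 4930562C15Rik and -0.14 ± 0.33 for A430107O13Rik (adjusted p from 0.745 to 0.986; edgeR). Each of these differences was smaller than its standard error.

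The genotype differences of the 2 sets can also be set side by side, as a description, since the choice had asked for a strong difference in the same direction in both. The log2 fold change of the Pomc-high minus that of the Calca-high set was 0.29 ± 0.16 (SE) for Cwc22, 0.72 ± 0.33 for Il1f9, -0.37 ± 0.33 for 4930562C15Rik and -0.15 ± 0.49 for A430107O13Rik. Of all 15432 genes, 22.9% passed edgeR's test of this difference, and nothing is read from that share about the members.

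The engineered genes themselves were counted next, Crebbp first. Crebbp stood at 41.0 to 109 CPM in the Rb1/Trp53/Crebbp tumours and 34.7 to 114 CPM in the Rb1/Trp53 tumours, with a log2 fold change of -0.01 ± 0.20 over all libraries (adjusted p = 0.978, edgeR). It was -0.47 ± 0.23 in the Pomc-high set (adjusted p = 0.239) and 0.60 ± 0.12 in the Calca-high set (adjusted p = 0.00723), where Crebbp was higher in the tumours labelled with its engineered alleles. A count over the whole gene does not check a deletion of some of its exons, and the labels do not say which part is altered. These counts therefore check neither label, and the genotypes here are those the labels give. Ep300, the close relative of Crebbp, was 0.12 ± 0.14 in the Pomc-high set (adjusted p = 0.647) and 0.78 ± 0.09 in the Calca-high set (adjusted p = 0.00118). Trp53, altered in both genotypes, was -0.28 ± 0.18 in the Pomc-high set (adjusted p = 0.351, edgeR) and -0.84 ± 0.19 in the Calca-high set (adjusted p = 0.0116). Rb1, also altered in both, was 0.20 ± 0.12 and 0.29 ± 0.13 in these sets and passed in no fit. The limit on counts over the whole gene holds for both.

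The positions of the members were read from RefSeq's gene order, since engineered alleles and the chromosome around them are inherited together. 4930562C15Rik lies on chromosome 16 like Crebbp, with 16 RefSeq genes between them. Cwc22 and Il1f9 are both on chromosome 2 but have 988 RefSeq genes between them. A430107O13Rik is on chromosome 6, so that only 4930562C15Rik is near an engineered gene; Rb1 is on chromosome 14 and Trp53 on chromosome 11.

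Of the genes between Crebbp and 4930562C15Rik, 11 were tested and none passed over all 17 libraries or in the Pomc-high set (edgeR; 1 had an unadjusted p under 0.05 in each, and DESeq2 called none). Their log2 fold changes ran from -0.21 to 1.19 over all libraries, with a median of -0.10, and from -0.46 to 0.35 in the Pomc-high set. Among them 2 rose and 2 fell in the Calca-high set, at a median of 0.04. The highest value, in Srl, a calcium-binding protein gene of muscle, was 1.21 in the Calca-high set, below the 2.72 of 4930562C15Rik. The 2.35 of 4930562C15Rik in the Pomc-high set was likewise above every tested gene between it and Crebbp. Both comparisons follow in part from the choice of 4930562C15Rik by this difference.

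Neighbours of the members were taken as the 10 tested genes on each side. Together, 3 of 80 neighbours (3.75%) passed over all 17 libraries, 8 of 80 (10%) in the Pomc-high and 30 of 80 (37.5%) in the Calca-high set, beside 3.86%, 8.42% and 36.2% of all tested genes. The shares near the members were thus close to the background. Over all 17 libraries 0 of 80 passed without Rb1/Trp53/Crebbp T1, T3 or T4, 1 without Rb1/Trp53 T7 or T8 and 5 without Rb1/Trp53/Crebbp T5. In the Pomc-high set 1 of 80 passed without Rb1/Trp53/Crebbp T7, and 5 without Rb1/Trp53 T7, T8 or T9 or Rb1/Trp53/Crebbp T5 or T6. Next to Crebbp, 0 of 20, 0 of 20 and 7 of 19 passed; with edgeR's unadjusted p under 0.05 there were 2 and 3 in the first pair of counts, and DESeq2 called 0 and 1. The 7 in the Calca-high set were Zfp597, Nlrc3, Slx4, Adcy9 and Srl, which rose, and Pam16 and Hmox2, which fell. Without Rb1/Trp53 T3 or Rb1/Trp53/Crebbp T3 there were 4. The tested genes from Srl to Hmox2 are neighbours of both Crebbp and 4930562C15Rik and also lie between them. The counts for these stretches are therefore not separate.

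Around Cwc22 the share was above the background in the Pomc-high set, at 6 of 20 (30%). Osbpl6 (0.51 ± 0.15), Prkra (0.43 ± 0.12) and Ube2e3 (0.34 ± 0.08) rose, and Ttn (-1.91 ± 0.41), Ccdc141 (-1.37 ± 0.16) and Ssfa2 (-0.40 ± 0.11) fell, so that the calls went in both directions. Over all libraries 2 of 20 passed, Osbpl6 (0.70 ± 0.17) and Fkbp7 (-0.95 ± 0.22). Within the Calca-high set 9 of 20 passed. Pde11a (2.26 ± 0.42), Osbpl6 (1.19 ± 0.26), Sestd1 (0.71 ± 0.11), Nckap1 (0.60 ± 0.11) and Zfp804a (3.42 ± 0.91) rose. Fkbp7 (-1.05 ± 0.31), Ccdc141 (-1.77 ± 0.44), Pde1a (-3.23 ± 0.57) and Frzb (-1.99 ± 0.40) fell. Of these 20 neighbours Zfp804a thus came closest to the 4.10 of Cwc22 in that set. With 25 tested genes on each side the highest neighbour there reached 6.95, above Cwc22. The nearest tested neighbours of Cwc22 were the ubiquitin-conjugating enzyme gene Ube2e3 (0.34 and 0.08 in the Pomc-high and Calca-high sets) and Zfp385b (0.23 and -0.93). Both were far below the 4.40 and 4.10 of Cwc22 in the same sets, which follows in part from the choice of Cwc22.

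Around Il1f9 no neighbour passed over all 17 libraries or in the Pomc-high set (0 of 20 each with edgeR; 2 and 2 had an unadjusted p under 0.05, and DESeq2 called 2 and 0). Gpr158, Mastl, Spopl, Cacna1b and Ehmt1 rose, and Pax8 and Arrdc1 fell, in the Calca-high set. Around 4930562C15Rik none passed in the first pair of fits (3 and 4 had an unadjusted p under 0.05; DESeq2 called 0 and 1). Srl, Glyr1, Ubn1 and Ppl rose, and Pam16, Hmox2, Fam100a and Gm5480 fell, in the Calca-high set. Around A430107O13Rik the caveolin gene Cav1 fell by 1.14 on the log2 scale over all libraries, and in the Pomc-high set Cav1 (-1.22 ± 0.32) fell and the potassium channel gene Kcnd2 (0.74 ± 0.21) rose. Calca-high tumours had rises of Cav2, Cttnbp2 and Kcnd2 and falls of Cav1, Aass and Ndufa5.

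Of 73 neighbours tested in both sets, 4 (5.48%) passed in the same direction in both, beside 2.35% of all genes; the difference of these shares was not tested. They were Ccdc141 and Osbpl6 near Cwc22, and Cav1 and Kcnd2 near A430107O13Rik. Counted over whole chromosomes, members included, in all 17 libraries 5.68% of tested genes passed on chromosome 2, 5.32% on chromosome 16 and 3.29% on chromosome 6. The share of all tested genes was 3.86%. Chromosomes 2 and 16 had the highest shares of all chromosomes, and chromosome 4 followed at 4.8%. On chromosome 2, 36 called genes rose and 28 fell, and on chromosome 16, 15 rose and 9 fell. In the Pomc-high set the shares were 8.99%, 7.31% and 9.94%, beside 8.42% of all genes. Chromosome 6 was the highest there. These differences were not tested.

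**Figure D4:**
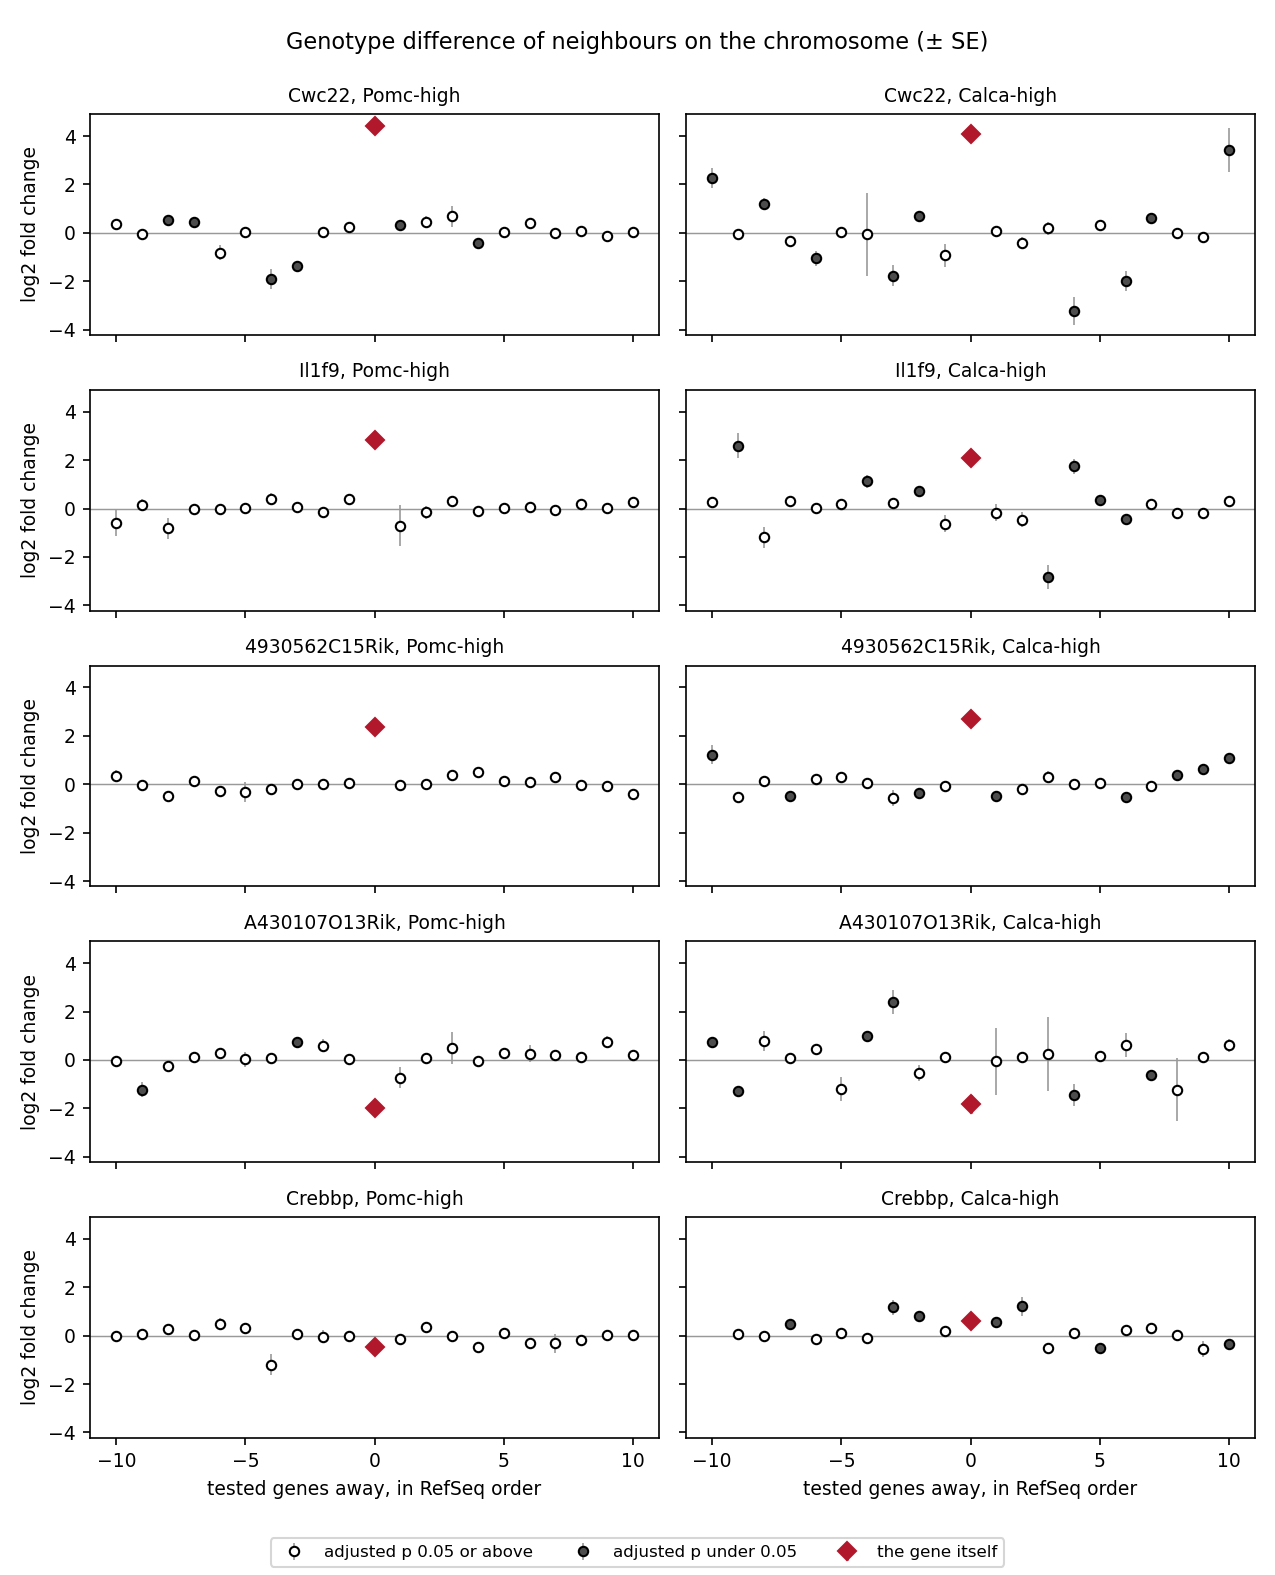
Log2 fold change ± SE of Rb1/Trp53/Crebbp over Rb1/Trp53 tumours for the 10 tested genes on each side of each member and of Crebbp, in RefSeq order, in the Pomc-high (left) and Calca-high (right) sets; filled circles passed at an adjusted p under 0.05 and red diamonds are the named gene. Each of Cwc22, Il1f9 and 4930562C15Rik stands above the neighbours drawn here in the Pomc-high set, which follows in part from their choice by this difference. With 50 tested genes on each side, not drawn, a neighbour of 4930562C15Rik reached 4.68 in that set. In the Calca-high set single neighbours reach 2.60 near Il1f9 (Gpr158) and 3.42 near Cwc22 (Zfp804a). With 25 tested genes on each side, not drawn, they reach 6.95 near Cwc22 and 3.01 near 4930562C15Rik in that set.

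Partners of Cwc22 were examined in a list of 35 genes of the exon junction complex and the spliceosome. None passed over all 17 libraries (median log2 fold change 0.02, beside -0.02 for all tested genes; 4 had an unadjusted p under 0.05 with edgeR, and DESeq2 called 1) or in the Pomc-high set (median 0.07, beside 0.01; 5 and 3). The core genes of the exon junction complex had log2 fold changes of -0.04 ± 0.12 for Eif4a3, 0.04 ± 0.16 for Magoh, 0.02 ± 0.09 for Rbm8a and 0.14 ± 0.06 for Casc3 over all libraries. In the Calca-high set the spliceosome core gene Prpf8 (0.67 ± 0.13) and the splicing helicase genes Dhx15 (0.38 ± 0.09) and Dhx38 (0.78 ± 0.15) rose. Magohb (-0.63 ± 0.17), Rbm8a (-0.27 ± 0.08), Cwc15, Syf2, Dhx16 and Ppil1 fell there, giving 9 of 35 called where 36.2% of all genes were. None of the 35 came near the 4.10 of Cwc22 in that set.

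The interleukin 1 family was sparse in these tumours. Of 23 genes of the family, its receptors and the proteases that cleave its cytokines, 11 passed the filter. Of the chromosome 2 relatives of Il1f9, Il1f5 and Il1f8 had no read in any library, and Il1f6 and Il1f10 were seen in 1 Rb1/Trp53/Crebbp library each, at 0.0646 CPM. Il1rl2, the receptor chain that binds interleukin 36, reached at most 0.904 CPM in Rb1/Trp53/Crebbp and 0.596 CPM in Rb1/Trp53 tumours. Its partner Il1rap was present at 16.3 to 36.9 CPM in Rb1/Trp53/Crebbp and 15.3 to 46.8 CPM in Rb1/Trp53 tumours (-0.27 ± 0.23).

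None of the 11 genes passed over all libraries or in the Pomc-high set, and none had an unadjusted p under 0.05 there with edgeR or a call with DESeq2. In the Calca-high set Il18 (-0.63 ± 0.18) and the interleukin 1 receptor gene Il1r1 (-1.43 ± 0.36) fell. Ctss, a protease that trims interleukin 36 gamma in human cells, was at -0.67 ± 0.43 over all libraries. Of 12 genes that interleukin 36 induces in skin, 4, 4 and 5 could be tested over the whole series, the Pomc-high set and the Calca-high set, and none passed (edgeR; 0, 3 and 0 had an unadjusted p under 0.05, and DESeq2 called none). Among them Nfkbiz, a nuclear regulator of NF-kappaB, was at -0.16 ± 0.24 and the neutrophil chemokine gene Cxcl1 at 0.32 ± 0.44 over all libraries.

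Genes known to vary in copy number or to carry null alleles among laboratory strains were looked at because the labels give no strain. Of 14 such genes, 13 were counted and 11 tested. None passed over all libraries or in the Pomc-high set (medians -0.02 and -0.002; 2 and 3 had an unadjusted p under 0.05 with edgeR, and DESeq2 called 2 and 2). Btaf1 (0.50 ± 0.09), a transcription factor gene, rose in the Calca-high set, and Glo1 (-0.60 ± 0.18), which encodes glyoxalase 1, was among those that fell there. Nnt, whose coding exons are partly deleted in C57BL/6J mice, was at -0.02 ± 0.15 over all libraries. Gpnmb, a transmembrane glycoprotein gene with a null allele in DBA/2J mice, had the largest value of the list, -2.55 ± 0.89 over all libraries (adjusted p = 0.107, edgeR) and -3.17 ± 1.41 in the Pomc-high set (adjusted p = 0.201). Its level was 0.817 to 12.3 CPM in Rb1/Trp53/Crebbp and 0.307 to 104 CPM in Rb1/Trp53 tumours, so that the genotypes overlapped and no library lacked it. A strain difference between the genotypes, and the copy number of the members, were not tested, since the labels give neither, and genotype cannot be told apart from either.

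Sex differed between the genotypes, as read from Xist, which marks cells with an inactive X chromosome, and from 4 Y-linked genes. Xist was at least 100 CPM in 7 of 8 Rb1/Trp53/Crebbp and 4 of 9 Rb1/Trp53 libraries, and the Y-linked genes summed to at least 10 CPM in 1 and 4. In the Calca-high set 3 of 4 Rb1/Trp53/Crebbp libraries had Xist and all 3 Rb1/Trp53 libraries had Y-linked reads. In the Pomc-high set 4 Rb1/Trp53/Crebbp and 4 Rb1/Trp53 libraries had Xist. Among these 8 the log2 fold changes were 4.43 ± 0.12 for Cwc22, 2.83 ± 0.26 for Il1f9, 2.26 ± 0.24 for 4930562C15Rik and -1.92 ± 0.35 for A430107O13Rik, beside 4.40, 2.82, 2.35 and -1.98 in the whole Pomc-high set. No Rb1/Trp53 library of the Calca-high set had Xist, so that no such value exists there. The 1 Rb1/Trp53/Crebbp library with Y-linked reads, T1, had 481 CPM of Cwc22, and the 4 Rb1/Trp53 libraries with them had 30.4 to 34.5 CPM. In the Calca-high set sex and genotype largely went together. The part of sex in the differences of the members was not tested.

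Some markers of the tumours' own lineages moved with the genotype. Pcsk2, which encodes a prohormone convertase, fell over all libraries (-1.17 ± 0.20), in the Pomc-high set (-0.79 ± 0.19) and in the Calca-high set (-1.62 ± 0.17; edgeR, adjusted p from 0.00111 to 0.0216). Chga, the gene of the granule protein chromogranin A, fell over all libraries (-0.67 ± 0.16) and in the Calca-high set (-0.95 ± 0.24). The Calca-high set also had falls of Calca (-1.41 ± 0.30), of the receptor gene Ret (-1.23 ± 0.16) and of the thyroid transcription factor gene Nkx2-1 (-0.58 ± 0.11). There the 4 C cell markers summed to 40740 to 76389 CPM in Rb1/Trp53/Crebbp and 118398 to 165963 CPM in Rb1/Trp53 tumours, with no overlap. The pair of neuroendocrine markers summed to 3998 to 6837 CPM in Rb1/Trp53/Crebbp and 8112 to 10656 CPM in Rb1/Trp53 tumours of that set, again without overlap. The 4 melanotroph or corticotroph markers summed there to 2034 to 2823 CPM in Rb1/Trp53/Crebbp and 6072 to 7761 CPM in Rb1/Trp53 tumours, also without overlap. Pomc reached at most 73.1 CPM in that set, and Tbx19 and Pax7 did not pass the low-count filter. That sum was therefore nearly all Pcsk2, and adds nothing to the fall of Pcsk2 given above. In the Pomc-high set these 3 sums overlapped between the genotypes. Pcsk2 alone of these markers passed in that set. Ret (1.50 ± 0.58), Nkx2-1 (1.67 ± 0.68), Syp (0.29 ± 0.12) and Tbx19 (0.08 ± 0.10) were higher there without passing. Pomc (-0.50 ± 0.23), Pax7 (-0.50 ± 0.15), Chga (-0.48 ± 0.15) and Calca (-0.40 ± 0.89) were lower without passing. Pomc and Syp passed in no fit. The part of these markers in the differences of the members was not tested.

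Markers of other cell types moved with the genotype in part. The 5 macrophage markers summed to 11.7 to 88.4 CPM in Rb1/Trp53/Crebbp and 37.0 to 108 CPM in Rb1/Trp53 tumours, and Cd68 fell over all libraries (-1.21 ± 0.31) and in the Pomc-high set (-1.50 ± 0.32), as did Aif1 (-1.15 ± 0.34) and C1qa (-1.10 ± 0.30) in the Calca-high set. The 6 keratinocyte markers summed to 19.8 to 33.2 CPM in Rb1/Trp53/Crebbp and 15.1 to 47.0 CPM in Rb1/Trp53 tumours, and only Krt10 and Krt1 passed, both lower in the Calca-high set, where the sums were 19.8 to 33.2 CPM in Rb1/Trp53/Crebbp and 38.7 to 47.0 CPM in Rb1/Trp53 tumours and did not overlap. The 5 fibroblast markers summed to 27.4 to 445 CPM in Rb1/Trp53/Crebbp and 42.9 to 627 CPM in Rb1/Trp53 tumours. Neutrophil markers summed to at most 1.03 CPM in Rb1/Trp53/Crebbp and 1.70 CPM in Rb1/Trp53 tumours, with Elane at 0 in all libraries, and T cell markers to at most 0.299 CPM in Rb1/Trp53/Crebbp and 1.19 CPM in Rb1/Trp53 tumours. Over all 17 libraries each of these 5 sums overlapped between the genotypes. The part of these cells in the differences was not tested.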

How the data were processed

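Gene counts of 17 libraries, as deposited by the authors, are whole numbers of reads per gene, not normalised. TRIzol extraction, oligo-dT selection and a NEBNext Ultra kit gave the libraries, per the labels; the submitters' processing notes name bcl2fastq 1.8.2, TopHat2 2.0.12, HTSeq 0.6.1 and the mm9 build. The 5 summary rows (21.7% to 35.4% of each table) were left out. CPM is the count over the library's total on genes. Fits used edgeR 4.0.16 in R 4.3.3 (quasi-likelihood F test, robust, TMM, filterByExpr, Benjamini-Hochberg adjustment over all genes tested), DESeq2 1.42.0 being an alternative; log2 CPM used a prior count of 2. SE is the log2 difference over the square root of F. Counting error limits the low counts. Sets were defined by Pomc against Calca counts. Other scalings, filters, a set term, a replicate block, leaving out each library and Xist-bearing libraries alone were tried. No library was a repeat of another (64 pairs within a genotype, chi-square per degree of freedom at least 8.30). RefSeq GRCm38.p6 gave gene order and promoters, matching 23001 of 23284 genes (20683 by symbol, 2318 by synonym); its coordinates are not those of mm9, and the promoters are credited to that build. Members, gene lists and sets were chosen with earlier results of these data known. Named genes are the members, the engineered genes and Ep300, the 3 genes most like each member, the 10 other genes with the widest gap, called neighbours, and called or interacting list genes. H2-Ea and Ly6g are not analysed here. Fits were tested on simulated counts.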

Additional observations from a re-analysis of the deposited data

Results flagged for a closer look

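Among 40 groups of 4 to 10 libraries examined for the 4 members and Crebbp, Ep300, Rb1 and Trp53, 3 held a library far from the others of its group, and chance alone sets about 1 in 20 groups apart; none of the 3 was a member gene. Crebbp in Rb1/Trp53 T2 stood at 114.1 CPM, where the next of the 9 Rb1/Trp53 libraries had 72.41 CPM. Ep300 in Rb1/Trp53/Crebbp T3 stood at 191.1 CPM, where the next of the 4 Calca-high Rb1/Trp53/Crebbp libraries had 167.4 CPM. Rb1 in Rb1/Trp53/Crebbp T1 stood at 110.6 CPM, where the next of the 4 Calca-high Rb1/Trp53/Crebbp libraries had 81.35 CPM.

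The genotype difference of Crebbp was unlike between the sets, at -1.08 for the Pomc-high minus the Calca-high log2 fold change (adjusted p = 0.024, edgeR's quasi-likelihood test of the interaction, 17 libraries). That of Ep300 was -0.673 (adjusted p = 0.0234, same test). For both genes the difference was lower in the Pomc-high set, where neither passed, than in the Calca-high set, where both were higher in the Rb1/Trp53/Crebbp tumours.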

How the results depend on the processing

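The 12 genotype fold changes of the members (4 genes, over all 17 libraries and in each set) were recomputed 228 times. None changed sign, which follows in part from the choice of the members by these differences. Of these values 1 moved by more than its spread, Cwc22 in the Calca-high set with total count scaling (4.31). Genes called numbered 554 for the 17 libraries, 1179 for the Pomc-high and 5355 for the Calca-high set. Over all libraries they were 1397 with DESeq2, 2575 with set as a term, 214 with Xist-bearing libraries only (an alternative chosen after seeing the data), and 285 to 1010 with 1 library left out: leaving out Rb1/Trp53 T7 gave 313 and Rb1/Trp53 T8 gave 326, and of the Rb1/Trp53/Crebbp libraries T1 gave 309, T2 gave 332, T3 gave 292, T4 gave 285 and T5 gave 1010. In the Pomc-high set they were 1917 with DESeq2, 665 with Xist-bearing libraries only and 752 to 1214 with 1 library left out (752 without Rb1/Trp53/Crebbp T7). In the Calca-high set they were 3588 to 5312 with 1 library left out. Total count scaling shifted the median of all genes to 0.17, 0.13 and 0.18, and the share of calls that were higher to 90.6%, 67.3% and 77.2%, from 46.9%, 37.5% and 52.7%; with Xist-bearing libraries only it was 36.4% over all and 26.6% in the Pomc-high set.

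The labels do not say whether the tumour numbers pair the libraries. Deviations of same-numbered tumours from their genotype correlated at -0.65 to 0.77. With the set also taken out, pairs within a set correlated at -0.16 to 0.19. Of the 8 Rb1/Trp53/Crebbp libraries, 2 correlated best with their own number. These correlations do not settle whether same-numbered tumours share an origin. With the number as a replicate block, 354 genes were called in the Pomc-high set, 24.9% of them higher, and 2700 in the Calca-high set. Within Rb1/Trp53/Crebbp tumours, Pomc-high over Calca-high with the block was 0.37 for Cwc22, 1.02 for Il1f9, 0.01 for 4930562C15Rik (0.013) and 0.40 for A430107O13Rik, none past the threshold; within Rb1/Trp53 tumours it was 0.066, 0.26 and 0.24 for Cwc22, Il1f9 and A430107O13Rik; and the difference between sets of A430107O13Rik was 0.16. Near the members 1, 1 and 19 genes were called with the block over all, among Pomc-high and among Calca-high tumours, and near Crebbp 1 in the Calca-high set.

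Without a low-count filter the Cwc22 set difference in Rb1/Trp53/Crebbp tumours was 0.27 (adjusted p = 0.0683), and that of 4930562C15Rik in Rb1/Trp53 tumours -0.0078; with DESeq2 that of Il1f9 in Rb1/Trp53 tumours was 0.013. With 1 library left out, the set difference in Rb1/Trp53/Crebbp tumours ran from 0.21 to 0.41 for Cwc22, 0.59 to 0.83 for Il1f9, -0.61 to -0.20 for 4930562C15Rik and -0.47 to 0.21 for A430107O13Rik. In Rb1/Trp53 tumours it ran from -0.050 to 0.030, -0.19 to 0.18, -0.063 to 0.13 and -0.23 to -0.01 for the same genes in the same order. The difference of genotype effect between sets ran from 0.22 to 0.41, 0.53 to 0.90, -0.62 to -0.21 and -0.34 to 0.34.

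Genes called near the members over all libraries were 9 with DESeq2, 16 with set as a term, 0 with Xist-bearing libraries only, 7 of 196 with 25 genes a side and 18 of 371 with 50. In the Pomc-high set they were 1 with Xist-bearing libraries only, 4 without a filter, 5 in the 4-group fit, 13 and 28 with 25 and 50 genes a side, and in the Calca-high set 71 and 137. Near Crebbp they were 3 with set as a term and 4 with 50 genes a side over all, 1 with DESeq2 and 2 with 50 a side in the Pomc-high, and 15 and 27 with 25 and 50 a side in the Calca-high set. With 1 library left out, the counts over all, Pomc-high and Calca-high libraries ran from 0 to 5, 1 to 7 and 24 to 34 near the members, and 0 to 1, 0 to 1 and 4 to 7 near Crebbp. The causes of these shifts were not tested. Read depth limits Il1f9 in Rb1/Trp53 and A430107O13Rik in Rb1/Trp53/Crebbp tumours, at as few as 16 and 14 reads.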
